A study of Caenorhabditis elegans with 2 samples.

Results

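The genes described are 9 that encode transcription factors which select neuron identities in Caenorhabditis elegans and unc-37, which encodes a Groucho-family corepressor. The 10 genes were taken by name (unc-86, mec-3, unc-3, unc-42, unc-4, unc-37, ttx-3, lim-4, lin-11 and che-1) out of 19973 protein-coding genes. For each gene, LIN-14 peaks were collected whose summit, the position of highest enrichment, lay from 5 kb upstream of the gene to 1 kb downstream of it. This gave 15 of the 11507 peaks in the reproducible list. LIN-14 occupancy had been mapped by chromatin immunoprecipitation followed by sequencing (ChIP-seq) in 1 group with 2 biological replicates and no second condition. The worms were strain OP768, an unc-119(tm4063) mutant carrying the transgene wgls768, in which lin-14 is fused to TY1, EGFP and 3xFLAG tags and is accompanied by a functional unc-119 copy. Both replicates were whole L1 larvae of mixed sex, 6 hours old, synchronised by starvation after bleaching, and the fusion protein was precipitated with an antibody against GFP. The labels do not say which cells held the fusion protein, so a peak found in whole animals cannot be placed in a neuron or in any other cell.

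LIN-14 is a nuclear protein that times development in the early larva and is turned down afterwards by the lin-4 microRNA. Neuron identity in the worm is set by transcription factors often called terminal selectors, which switch on the genes a neuron type uses for its mature function and commonly maintain their own expression. POU, LIM and paired-like homeodomain proteins, a COE-family factor and a zinc finger protein are all among the encoded proteins here. UNC-37 binds no DNA sequence of its own and represses genes together with partner factors such as UNC-4.

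LIN-14 peaks were found at 6 of the 10 genes, namely unc-42 and unc-3 with 4 each, lim-4 with 3, unc-86 with 2, and unc-37 and lin-11 with 1 each. The other 4 genes, mec-3, unc-4, ttx-3 and che-1, had none. Over all protein-coding genes, 45.1% had at least 1 peak in such a window, and the share was 53.6% among the 6532 genes whose windows were as long as those of the 10 genes (8.63 to 16.0 kb). With only 10 genes each one weighs 10 percentage points, so 60% is close to the background. The 10 windows held 0.141 peaks per kb, against 0.105 per kb over the windows of all protein-coding genes. The genes with 3 or more peaks were 3 of the 10, against 12.6% of all protein-coding genes and 17.4% of those with windows of similar length. This count depended on the window. From 2 kb upstream to 200 bp downstream, unc-42 kept 4 peaks, while unc-3 and lim-4 had 2 each. The share of all genes with 3 or more peaks was not counted for that window. 

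**Figure D1:**
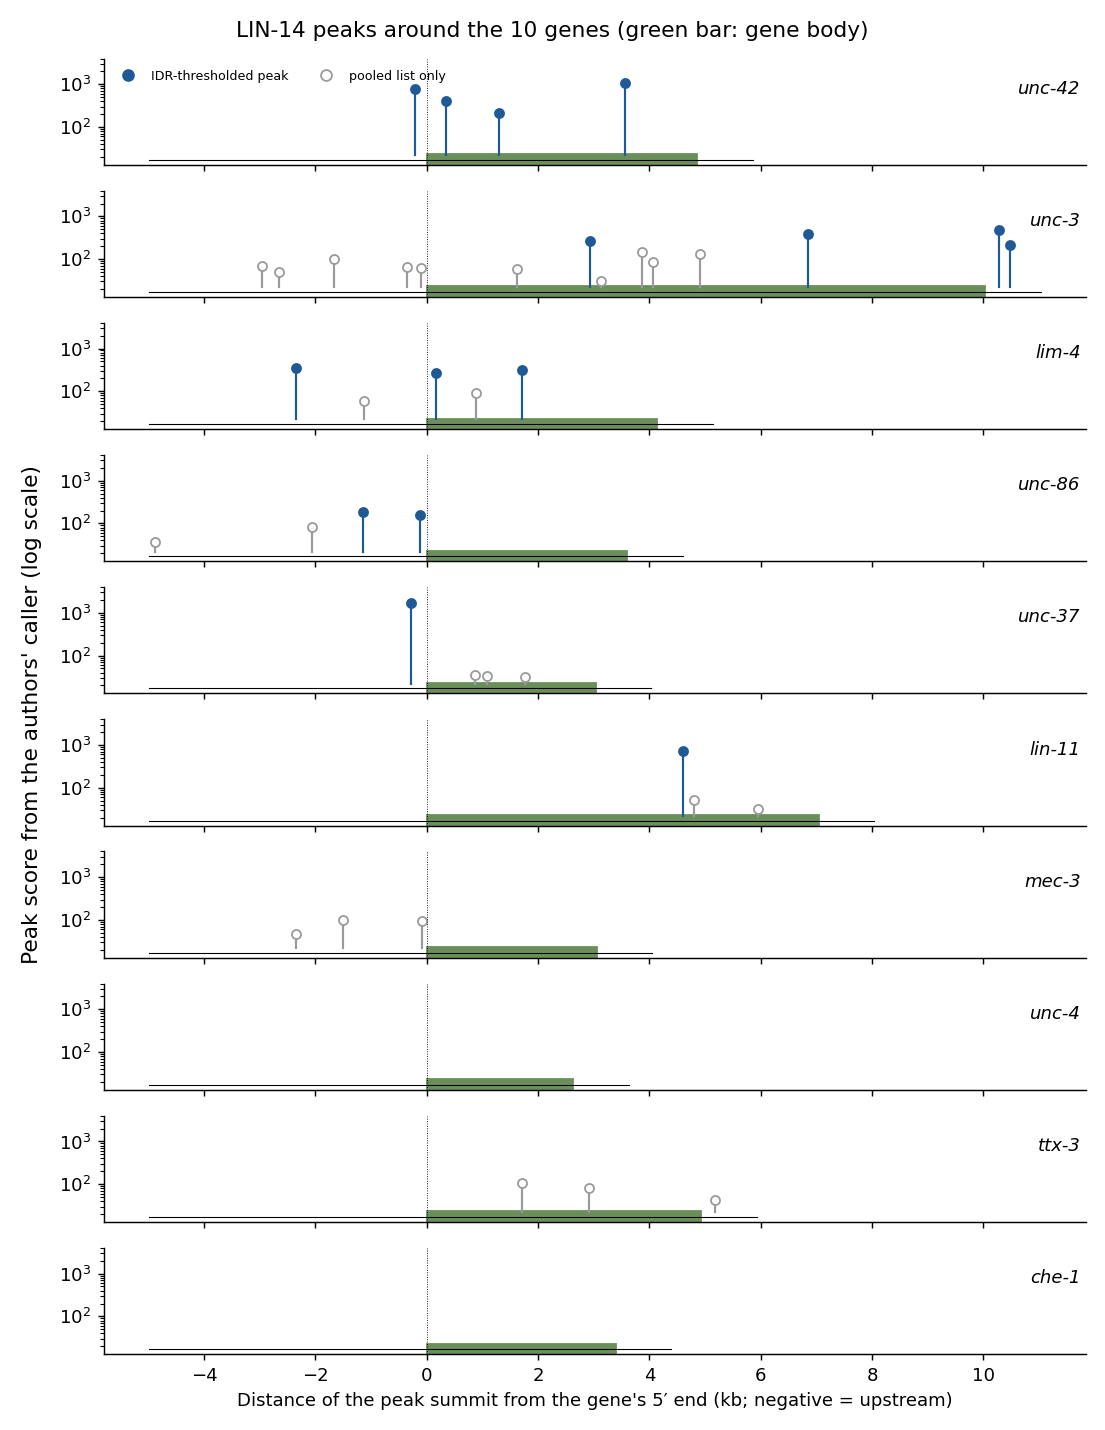
Peaks around each of the 10 genes, with the distance of the summit from the gene's 5′ end in kb on the x axis and the peak score on a log y axis. Filled blue points are reproducible peaks, open grey points are peaks of the pooled list alone, the green bar is the gene body and the thin line is the window searched. Only unc-4 and che-1 have no point of either kind, and mec-3 and ttx-3 have grey points alone.

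Peaks are described by the score assigned by the authors' peak caller, whose unit is not stated and whose scale differs between lists. The reproducible list passed a threshold on the irreproducible discovery rate (IDR), a measure of how consistently peaks rank in 2 replicates, and its scores ran from 147.5 to 13287.5 with a median of 358.7. Of the 15 peaks, 7 scored above that median and 8 below it, and the 7 lay at 4 of the 10 genes, against 34.2% of all protein-coding genes with a peak in that stronger 50%. Scores of the replicates are given beside it from their own lists, which are on a lower scale, so the order of peaks is compared by percentiles within each list. Ratios of scores between replicates are set only against the ratio over all peaks. For the 15 peaks, score and rank in the reproducible list equalled those in the pooled list. The other pooled peaks in the 10 windows all scored below the lowest score of the reproducible list, though some were present in both replicates. Coordinates are on ce11, counted from 1, and gene structures are those of the longest annotated transcript in Ensembl (WBcel235). No difference between conditions exists in this design, and no test was made over these genes.

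Sequence is shown for the strongest peak of each of the genes unc-86, unc-3, unc-42 and lim-4 and, for unc-86 and unc-42, also for the peak just upstream of the 5′ end, added after the positions were seen. Each stretch runs from 50 bases before the summit to 50 bases after it, from the RefSeq copy of WBcel235, written 5′ to 3′ on the strand of the gene. Capitals mark every match, on either strand, to the 8 short sequences searched for. These were TGGAA and TGGAG, likewise CGGAA and CGGAG, the repeat GAGAGA and the factor sites TAATTA and GAAGCC and CCCNNGGG.
unc-86 at 1142 bp upstream, chrIII:8217428-8217528, minus strand: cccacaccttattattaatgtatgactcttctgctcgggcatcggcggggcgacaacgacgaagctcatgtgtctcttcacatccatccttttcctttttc
unc-86 at 121 bp upstream, chrIII:8216407-8216507, minus strand: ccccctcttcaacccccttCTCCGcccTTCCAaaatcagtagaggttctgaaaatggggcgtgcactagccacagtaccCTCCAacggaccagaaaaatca
unc-3 at 249 bp downstream, chrX:14783767-14783867, plus strand: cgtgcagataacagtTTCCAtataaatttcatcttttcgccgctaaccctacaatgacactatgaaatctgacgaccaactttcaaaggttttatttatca
unc-42 in intron 4, chrV:9765777-9765877, minus strand: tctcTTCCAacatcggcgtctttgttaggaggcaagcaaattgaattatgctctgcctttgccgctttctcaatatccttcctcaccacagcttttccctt
unc-42 at 205 bp upstream, chrV:9769546-9769646, minus strand: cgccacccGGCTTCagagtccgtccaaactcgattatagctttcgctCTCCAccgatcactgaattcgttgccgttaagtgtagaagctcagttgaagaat
lim-4 at 2355 bp upstream, chrX:3875850-3875950, minus strand: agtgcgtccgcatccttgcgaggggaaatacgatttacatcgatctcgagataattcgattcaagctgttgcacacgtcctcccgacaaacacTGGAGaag

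The short sequences TGGAA and TGGAG, with CGGAA and CGGAG, are 4 forms of an element described for LIN-14. Matches were counted on both strands, overlapping ones included. At least 1 form lay within 50 bp of the summit in 10 of the 15 peaks (66.7%), against 56.9% of all 11507 peaks. The unc-86 peak at 121 bp upstream held 3 matches. None lay in the other unc-86 peak, the unc-37 peak, the lim-4 peaks in exon 1 and intron 3, or the unc-3 peak 448 bp downstream. In the peak 205 bp upstream of unc-42 a TGGAG match on the opposite strand began 3 bases before the summit. The match in the intron 4 peak lay 46 bases before its summit, near the edge of the stretch. GAGAGA was found in 3 of the 15 peaks (20%) and in 26.4% of all peaks. Of the sequences bound by the encoded factors themselves, GAAGCC, the core of the CHE-1 site, lay in the upstream unc-42 peak alone (6.67%, against 2.46% of all peaks). Neither TAATTA, the core of many LIM homeodomain sites, nor CCCNNGGG, the core of the site of the COE family, lay in any of the 15, and they were rare in all peaks (2.94% and 1.31%). The median GC content of these stretches was 47.5%, against 43.6% over all peaks.

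The highest score of the 15 belonged to unc-37, the Groucho corepressor gene (chromosome I, 6742299 to 6745329, minus strand). Its single peak, at 6745380 to 6745795 with the summit 284 bp upstream of the 5′ end, scored 1684 and stood at rank 635 of 11507. Replicate 1 gave it 972.6 and replicate 2 gave it 706.8, which placed it at percentiles 97.7 and 97.4 of their lists. Both replicates therefore ranked it among the strongest peaks. Among protein-coding genes with a peak, the strongest score of unc-37 stood at percentile 87.4. The nearest 5′ end of another protein-coding gene, W02D3.12, was 3629 bp away. Within the gene, 3 further peaks appeared in the pooled list alone, with scores of at most 34.9 and none present in both replicates.

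Its partner UNC-4 is a paired-like homeodomain protein that keeps VA motor neurons from taking the input of a sister class. No reproducible or pooled peak lay in the window of unc-4 (chromosome II, 9897751 to 9900376, minus strand). Replicate 1 had 1 peak there and replicate 2 had none. The closest reproducible summit lay 7764 bp downstream of the 5′ end, beyond the window, with a score of 279.2.

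Among the homeodomain genes unc-42 had the densest and strongest set. UNC-42 is a paired-like homeodomain protein of command interneurons and other neurons of the locomotor circuit, and its gene (chromosome V, 9764534 to 9769391, minus strand) has 5 annotated transcripts. The strongest peak, at 9765628 to 9765970, lay in intron 4 of 6 and scored 1063, with 576.4 in replicate 1 and 492.6 in replicate 2. Its summit was 3564 bp inside the gene and 837 bp upstream of the 5′ end of a shorter transcript. A peak at 9769355 to 9769784, with its summit 205 bp upstream of the gene, scored 754.5 (replicate 1, 405.0; replicate 2, 349.6). The first intron held one of 399.5 (205.8 and 190.6), 338 bp inside. That summit also lay within the annotated non-coding RNA gene F46B6.16. The second intron held the weakest, 210.7 (101.6 and 103.4), which lay 348 bp upstream of another short transcript. All 4 summits were nearest to a 5′ end of unc-42 itself, and the pooled list added no further peak. At 0.368 peaks per kb, unc-42 exceeded 93.4% of protein-coding genes, and 3.29% of them had more than 4 peaks.

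UNC-3, the worm's COE-family factor, directs the cholinergic identity of motor neurons. The unc-3 gene (chromosome X, 14773538 to 14783568, plus strand) is the longest of the 10, and its 4 peaks all lay inside it or downstream. The strongest scored 472.4 (251.7 in replicate 1 and 213.2 in replicate 2) at 14783599 to 14783909, with the summit 249 bp beyond the 3′ end of the gene. A second one, at 14783915 to 14784019 with its summit 448 bp beyond the gene, scored 208.4 (92.7 and 74.8). It was 105 bp wide and began just after the strongest ended, without overlap. Merging of overlapping peaks therefore kept them apart. Intron 7 of 11 held a peak of 386.2 (210.4 and 174.5), and intron 1 held one of 271.2 (136.2 and 136.7). The 5′ end of unc-3 had no reproducible peak upstream within 5 kb. The pooled list added 10 weaker peaks, more than at any other of the 10 genes, 5 of them upstream. The window of unc-3, 16.0 kb, was also the longest. The summits 2958, 2653 and 1665 bp upstream were nearer to the 5′ end of Y16B4A.2. Those 354 and 97 bp upstream were present in replicate 2 only. Of the 10 weaker peaks, 4 were present in both replicates, and their highest score, 143.6, was just under the lowest score of the reproducible list. The 2 downstream peaks were nearest to a 5′ end of tatn-1, at 7191 and 6992 bp from it.

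Of the 4 LIM homeodomain genes, lim-4 and lin-11 had peaks, and mec-3 and ttx-3 had none in the reproducible list. At lim-4, which specifies the AWB olfactory neurons (chromosome X, 3869404 to 3873545, minus strand), 3 peaks of similar score were found. The one 2355 bp upstream scored 344.5, with 205.6 in replicate 1 and 137.4 in replicate 2. Its summit also lay within the annotated non-coding RNA gene ZC64.6. A peak in intron 3 of 7 scored 310.8 (179.9 and 111.6), and its summit in replicate 2 lay 99 bp away, the largest offset of the 15. The third, with its summit in exon 1 and 6 bp from the 5′ end of a shorter transcript, scored 271.1 (135.8 and 131.6). All 3 fell below the median score of the list.

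At lin-11, which acts in AIZ interneurons and other neurons and in the vulva (chromosome I, 10248288 to 10255327, plus strand), the single peak lay in intron 7 of 9, 4602 bp inside the gene. It scored 709.2 (387.4 and 313.2), at percentile 89.2 of replicate 1 and 90.2 of replicate 2. Neither mec-3, which acts with UNC-86 in touch receptor neurons (chromosome IV, 10458816 to 10461867, minus strand), nor ttx-3, the selector of the AIY interneuron (chromosome X, 11764456 to 11769378, minus strand), had a reproducible peak. The nearest such summit was 18396 bp from the 5′ end of mec-3 and 11457 bp from that of ttx-3. Weaker peaks were nevertheless present. At mec-3 the pooled list held 3 upstream of the gene, at 89, 1497 and 2342 bp, with scores of 92.5, 101.2 and 47.8, and all 3 were present in both replicates. The summits at 1497 and 2342 bp were nearer to the 5′ end of ugt-43. At ttx-3 the pooled list held 3, with a highest score of 105.6 in intron 2, and 2 of them were present in both replicates. All of these were below the lowest score of the reproducible list, 147.5.

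The POU homeodomain gene unc-86 had the weakest of the 15 reproducible peaks. UNC-86 acts with MEC-3 in touch receptor neurons and alone or with other partners in several other neuron types. At unc-86 (chromosome III, 8212740 to 8216336, minus strand) one peak, with its summit 121 bp upstream, scored 157.8 (replicate 1, 77.2; replicate 2, 85.1), rank 11039 of 11507. The second, 1142 bp upstream, scored 182.3 (95.3 and 89.6), but its summit was nearer to the 5′ end of C30A5.16, at 741 bp. The strongest score of unc-86 stood at percentile 3.90 of genes with a peak. Both unc-86 peaks were 410 bp wide with the summit in the middle, the commonest width in the list (32.7% of all peaks), and so were the unc-3 peak in intron 1 and the lim-4 peak in exon 1.

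The zinc finger gene che-1, selector of the ASE gustatory neurons (chromosome I, 6517529 to 6520918, minus strand), had no peak in any of the 4 lists from 5 kb upstream to 1 kb downstream. The nearest reproducible summit was 14164 bp from its 5′ end and scored 227.2. It was the only one of the 10 with no peak in either replicate list as well as in the pooled and the reproducible list.

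**Figure D2:**
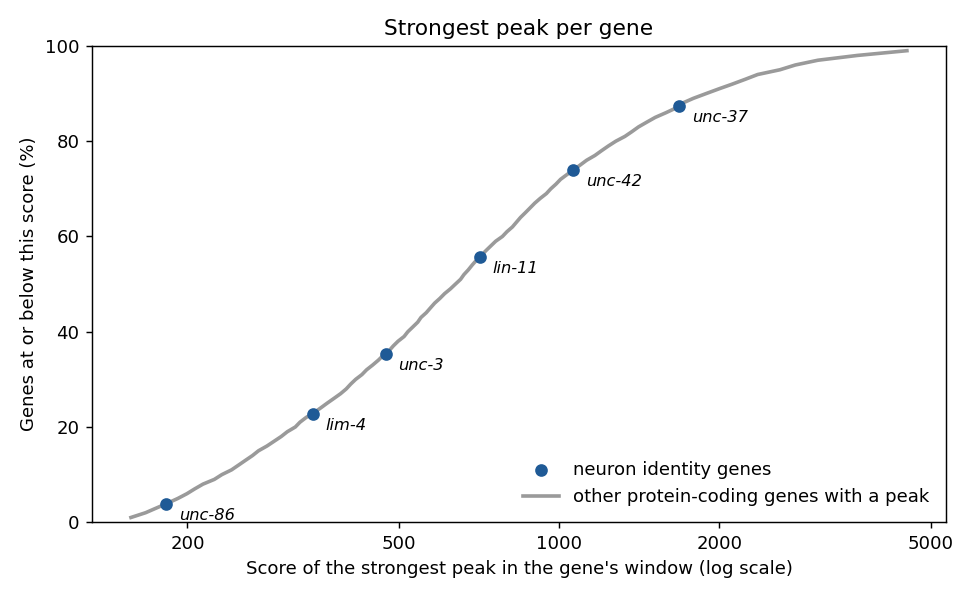
The score of each gene's strongest peak on a log x axis, against the share of protein-coding genes with a peak that score the same or less, in percent. Blue points are the 6 neuron identity genes with a peak, which run from percentile 3.90 for unc-86 to 87.4 for unc-37, and the grey curve is the other genes.

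In order of their strongest peak the genes were unc-37, unc-42, lin-11, unc-3, lim-4 and unc-86. Their median was 590.8, against 638.4 for all protein-coding genes with a peak. Both replicates gave this same order, and the percentiles of unc-37 and unc-42 in the replicates (97.7 and 97.4, 94.1 and 95.0) did not overlap, nor did those of unc-42 and lin-11. The order of lin-11 over unc-3 (81.6 and 84.0) and of unc-3 over lim-4 (77.2 and 74.7) held in the same way. Because the order was taken from a list derived from both replicates, their agreement is no independent support for it.

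All 15 peaks were present in both replicates within 100 bp, as were 96.6% of the whole list. Because the list was derived from the replicates, this is no independent measure of their agreement. The median distance between a summit and its counterpart in a replicate was 11 bp. The log2 ratio of the replicate 1 score to the replicate 2 score ran from −0.14 at the unc-86 peak 121 bp upstream to 0.69 at the lim-4 intron 3 peak, around a median of 0.23 (SD 0.23 over the 15 peaks). Over the 11120 peaks matched in both replicates the median was 0.35 with an SD of 0.41. Percentiles differed between replicates by 0.34 points at unc-37 and by 11.4 points at the weakest unc-86 peak, where replicate 2 ranked it higher.

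**Figure D3:**
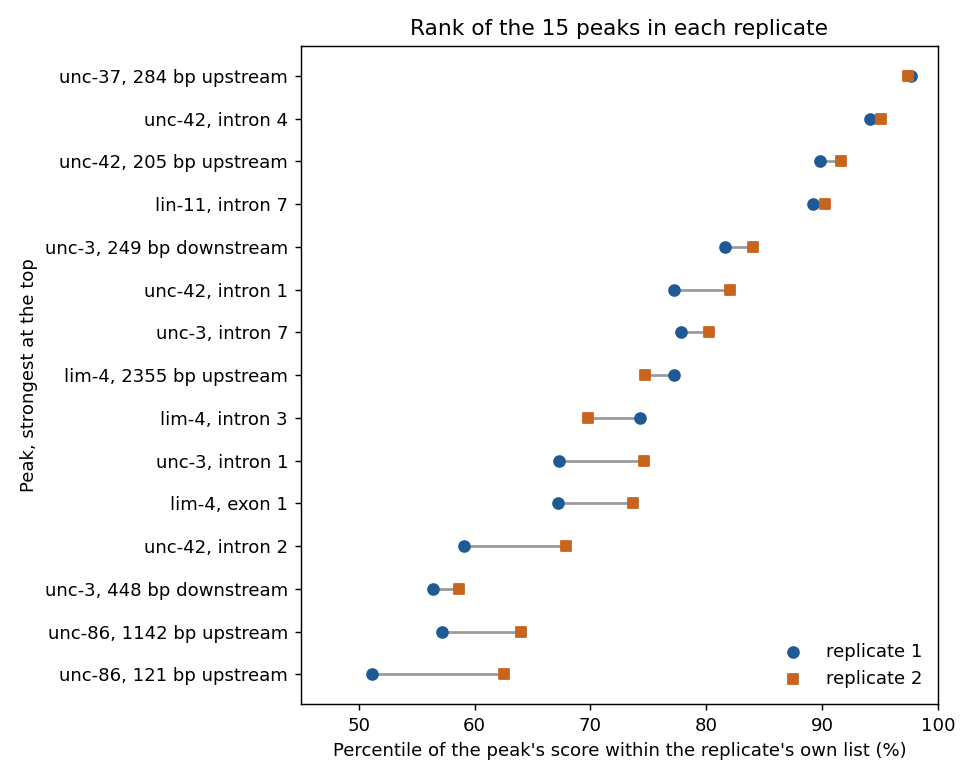
Percentile of each of the 15 peaks within the list of replicate 1 (blue circles) and of replicate 2 (orange squares), strongest peak at the top, with a grey line joining the replicates. The 4 strongest peaks lie at or above percentile 89.2 in both, and the weakest unc-86 peak shows the widest gap, 51.1 in replicate 1 and 62.5 in replicate 2.

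Of the 15 peaks, 8 were inside the gene body, 5 upstream and 2 downstream. Over the windows of all protein-coding genes, 23.03% of the 19397 pairs of a gene and a peak were inside, 67.4% upstream and 9.52% downstream. The 8 were at unc-42 (3), unc-3 (2), lim-4 (2) and lin-11 (1), genes between 4142 and 10031 bp long. A longer gene gives more room inside, and the difference in shares was not tested. Within 500 bp of a 5′ end of one of their own transcripts there were 6 of the 15 peaks. In 12 of the 15 cases the nearest 5′ end of any protein-coding gene was that of the gene itself, the exceptions being the upstream unc-86 peak and the 2 peaks downstream of unc-3.

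Other neuron fate factors, 35 genes listed beside these 10, had a peak in 17 cases (48.6%), against the same 45.1% of all protein-coding genes. The strongest were the SOX-family gene egl-13 (942.3), the TEAD-family gene egl-44 (790.9), hlh-4 (676.8) and the ETS-family gene ast-1 (627.2), all below the peak at unc-42. The peaks at egl-13 and hlh-4 lay nearer to the 5′ end of another gene. Of these 35 genes, 7 had 3 or more peaks, against 12.6% of all protein-coding genes. The share was 17.4% among genes with windows as long as those of the 10 genes. The zinc finger gene sem-4 led the 35 with 8 peaks. Genes of this list without a peak included ttx-1 and ceh-36.

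Among genes that these selectors are known to act on, the share with a peak ran from 20% in ASE neurons to 77.8% in cholinergic motor neurons. The share of all protein-coding genes was 45.1%, and 53.6% for windows as long as those of the 10 genes. These lists are short, the cholinergic windows were long (median 12.6 kb), and the differences were not tested. In touch receptor neurons, where UNC-86 and MEC-3 act, 6 of 8 target genes had a peak, among them mec-10, a channel subunit (1187), the α-tubulin gene mec-12 (707.5), mec-9 (563.1) and the stomatin-like gene mec-2 (487.1). The mec-10 peak lay 4988 bp upstream, nearer to nhr-14, while that of mec-12 was 103 bp upstream. The peak of mec-17 was also nearer to another gene, arf-5. The channel gene mec-4 and mec-18 had none. Of 9 cholinergic motor neuron genes, 7 had a peak, led by unc-17 and cha-1 (656.9), followed by glr-4 (526.3) and acr-2 (416.6). The genes unc-17 and cha-1 encode the vesicular acetylcholine transporter and choline acetyltransferase and share the same peak, so a single site counts for both. The strongest peaks of unc-129 and acr-5 lay nearer to the 5′ end of another gene.

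In the ASE gustatory neurons only 2 of 10 genes had a peak, gcy-22 (1209) and tax-2 (157.9), both nearer to the 5′ end of a neighbouring gene, and che-1 itself is one of the 8 without. Of 8 genes of the AIY interneuron, 6 had a peak, with unc-17 again, the anosmin gene kal-1 (433.4), hen-1 (398.7, matched in replicate 2 only) and the receptor gene ser-2 (342.0), although their selector ttx-3, also counted in this list, had none. The peak of sra-11, also an AIY gene, lay nearer to the 5′ end of another gene. Among 6 genes of the Groucho pathway, 3 had a peak. Beside unc-37 these were lsy-22, which encodes a protein related to Groucho, with 9 peaks of up to 1374 (794.2 in replicate 1 and 595.8 in replicate 2), and the TCF-family gene pop-1 (319.7).

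**Figure D4:**
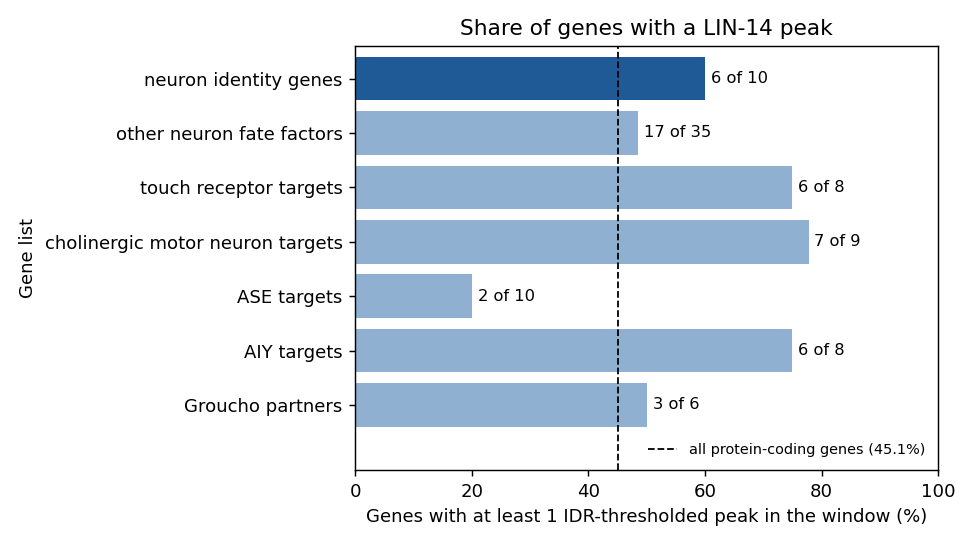
Share of genes with at least 1 reproducible LIN-14 peak in the window, in percent, for the 10 neuron identity genes (dark bar) and for 6 further lists, with the number of genes beside each bar. The dashed line marks the 45.1% of all protein-coding genes. Bars run from 20% for the ASE genes to 77.8% for the cholinergic motor neuron genes, and lists of 6 to 35 genes share some members.

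Chromosomes differed in how often a gene had a peak, which bears on the reading of single genes. The share was 62.1% on X, where unc-3 and lim-4 had peaks and ttx-3 had none, 50.7% on III (unc-86), 47.1% on II (unc-4), 46.2% on I (unc-37, lin-11 and che-1), 38.95% on IV (mec-3) and 34.9% on V (unc-42). Below the threshold of the reproducible list, the pooled list held 25 further peaks in the 10 windows. With these, 8 of the 10 genes had a peak, against 51.5% of all protein-coding genes. That share was not counted for genes with windows as long as those of the 10 genes. Of the 25, 11 were present in both replicates, 13 in one and 1 in neither. Over all 13176 pooled peaks below that threshold, 48.7% were present in both.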

How the data were processed

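Peaks of LIN-14 ChIP-seq on ce11 were used as the authors deposited them. Per the README files that the authors deposited, 1 list was called on each replicate (25357 and 27170 peaks for replicates 1 and 2), 1 on both together (24683), each against a control file, and the reproducible list (11507, all within the pooled list) was derived from these with an IDR threshold. For the aligner, caller, threshold and treatment of multiply mapping reads, nothing is given in the sources used here. The deposited score per peak is the authors' and not a read count. Other deposited values are the summit offsets. Read depth is unknown, and no intervals are given.

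Genes came from Ensembl (WBcel235), whose chromosome lengths, from the RefSeq sequence, exceeded every peak end. Windows, matches within 100 bp and percentiles were computed with Python 3.11.15, pandas 2.3.3 and numpy 2.4.6. Window counting was tested on simulated data. The replicates are biological per the labels. The members and lists were chosen with earlier results of these data known. Named genes are the 10 members, up to 4 of each other list with the highest scores, and genes nearest to a member's peak. A few others were marked by their count or chosen after their values were seen (sem-4, mec-4, mec-17, mec-18, unc-129, acr-5, sra-11, ttx-1 and ceh-36). Alternatives covered windows, assignment, merging, score, the 11507 highest scoring peaks of a single replicate, and matching distance.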

Additional observations from a re-analysis of the deposited data

How the results depend on the processing

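The same 6 genes had a peak in the windows of 2 kb upstream to 200 bp downstream and of 10 kb upstream to 1 kb downstream, when only peaks nearest to a 5′ end of the gene itself were counted, when overlapping peaks were merged, and when a replicate was left out by taking the 11507 highest scoring peaks of the other replicate's list in place of the reproducible list. The share of all protein-coding genes was 32.7% and 56.2% in the 2 windows, 27.5% with the nearest 5′ end and 47.1% and 46.1% without replicate 1 and without replicate 2. Of the 3 genes with 3 or more peaks, only unc-42 kept that many in the window of 2 kb. With the nearest 5′ end unc-3 fell to 2. In the stronger 50% of the list 7 peaks were left, at 4 genes, against 34.2% of all genes. The number of peaks was 12 to 16 under the other window, assignment and merging settings and 14 to 19 in those 11507 peaks of a single replicate. Without that limit on score, the full replicate lists also held peaks at mec-3, ttx-3 and, in replicate 1, unc-4. Percentiles of the strongest peak were taken here among all peaks of the list used, not among genes. Their median was 70.0 in the reproducible list, and 65.5 in the shorter window and with the nearest 5′ end. It was 67.9 to 69.6 when a replicate was left out. In the stronger 50% it was 65.2, a percentile within that shorter list over 4 genes. Their median score was 885.8, against 590.8 in the main setting. Among protein-coding genes with a peak, the median strongest score was 638.4, above 590.8. Of the 15 peaks, 14 were matched in both replicates within 50 bp and 15 within 200 bp or by any overlap. No paired analysis was possible because the design holds 1 group. Lists of peaks limit what can be said of the genes without one, since enrichment below the caller's threshold is not recorded.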
